A study of Mus musculus with 7 samples.

Results

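Choroid plexus transcripts were followed in 7 samples sequenced as neurons of the mouse medial preoptic area (MPA). The 9 genes chosen were Ttr, Folr1, Kl, Clic6, Aqp1, Slc4a5, Otx2, Kcnj13 and Prlr, and they were taken by symbol from the 24062 gene symbols of the deposited count files. All 9 were found. The samples came from ERα-ZsGreen mice, in which green fluorescence marks cells that express ERα, and the study's methods describe these as female mice of 10 to 14 weeks. Brain slices were warmed by 5 °C, from 25 °C to 30 °C, during current clamp recording, and the contents of 2 ZsGreen positive neurons with like responses were drawn into the patch pipette and pooled as 1 sample. Temperature-responsive (TR, n = 4) neurons raised their firing rate with warming by more than a cutoff set by the study, and non-responsive (NR, n = 3) neurons stayed below it. Both groups shared the reporter, the slicing and the warming, and there was no group without warming. The sources used here do not say which mouse each sample came from, so the spread between samples may be partly technical.

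The choroid plexus is an epithelial sheet inside the brain ventricles that secretes cerebrospinal fluid. Its cells move sodium, bicarbonate, chloride and water from blood to fluid, carry folate and thyroid hormone, and hold receptors for circulating hormones. The MPA lies beside the third ventricle, although the choroid plexus is no part of it. Prlr is also used by neurons of this region, whereas Ttr is known in the brain mainly from the choroid plexus.

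Total counts ranged from 1914497 to 2814360 in TR and from 3309361 to 5125280 in NR samples, and a floor of 3 counts equalled 0.564 to 1.62 CPM (a gene's counts scaled to a common library total with TMM factors). Genes with at least 1 count, called detected here, ran the other way, from 19852 to 21177 in TR and from 17818 to 19820 in NR samples. Neuronal transcripts were present in all 7 samples, with Snap25, a protein of transmitter release, at 592 CPM or more. Esr1, the gene of ERα, had only 10 to 27 counts. The Y-linked Ddx3y had 684 to 1150 counts per sample against 2 to 14 for Xist, in both groups, which goes against the statement that only females were recorded.

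All 9 choroid plexus genes had counts in all 7 samples, and 1 gene, Ttr, held most of them. Ttr made up 52.5% to 63.3% of the counts of the 9 genes, and Prlr came second with 15.4% to 21.5%. The 9 genes together reached 455 ± 50.03 CPM in TR (SD, n = 4) and 403 ± 40.7 CPM in NR samples (SD, n = 3). Without Ttr the sum was 173 ± 22.1 CPM in TR (SD, n = 4) and 175 ± 17.6 CPM in NR samples (SD, n = 3). The difference in group means was thus 52.4 CPM for the 9 genes, 54.0 CPM for Ttr alone and -1.58 CPM for the other 8. The difference in the summed level thus came from Ttr, while the sum of the other 8 genes differed by less than the spread between samples. Within that sum, differences of both signs partly cancelled, from -5.62 CPM for Kcnj13 to 2.29 CPM for Slc4a5. No test was made of these sums, because their members were chosen. In such pooled samples, the amount of material from a cell type and its RNA per cell cannot be told apart. The source of these transcripts in the patched neurons' samples was not tested.

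**Figure D1:**
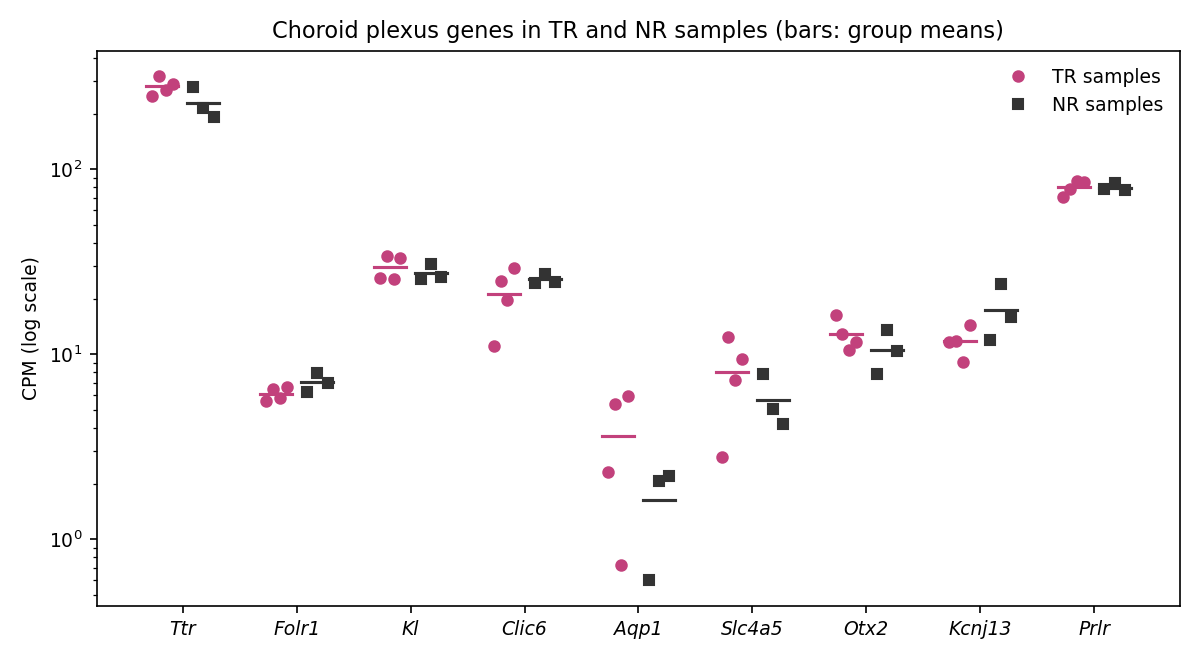
CPM of the 9 genes on a log axis, with 1 point per sample (4 TR samples as circles, 3 NR samples as squares) and a bar at each group mean. Ttr lies between 191 and 320 CPM, above all other genes in each sample, and the groups overlap for each of the 9 genes.

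Counts were compared between TR and NR samples with edgeR's quasi-likelihood test over 14407 genes, with Benjamini-Hochberg adjustment over all of them and a threshold of 0.05. Of the 9 genes, 1 passed, Ttr, which was higher in TR samples. Across all genes tested, 30.03% passed, 15.1% as higher and 14.9% as lower in TR samples. With only 9 genes, 1 call does not set them apart from this background. With upper quartile scaling the background split moved to 2634 genes higher and 1608 lower, and 1 of the 9 passed as before. The median log2 fold change of the 9 genes was 0.099, beside 0.0070 over all genes tested. TR and NR values were fully separated for 0 of the 9 genes, beside 35.4% of all genes (17.2% higher and 18.2% lower in TR samples). All 9 genes passed the filter of 10 counts in at least 3 samples, and 7 of them had 10 counts or more in every sample.

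Ttr encodes transthyretin, which carries thyroxine and retinol-binding protein and is secreted into the cerebrospinal fluid. It lies on chromosome 18 of mm10 from 20665280 to 20674321, and none of its exonic bases are shared with another gene. Its level was 249, 319.8, 269 and 289.5 CPM in TR replicates 1 to 4, from 536 to 824 counts. In NR replicates 1 to 3 it was 277, 215 and 191 CPM, from 925 to 1144 counts. NR replicate 1 lay inside the TR range, above 2 of the 4 TR samples, and NR replicates 2 and 3 lay below all TR samples. The mean was 282 ± 30.3 CPM in TR (SD, n = 4) and 228 ± 44.4 CPM in NR samples (SD, n = 3). The log2 fold change was 0.31 (standard error 0.116, 95% interval 0.072 to 0.55, adjusted p = 0.0449). Both size and rank were ordinary among the genes tested, since 49.8% of them changed by more on the log2 scale and 29.0% had a smaller p.

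The call for Ttr lay close to the threshold, and leaving out 1 sample often undid it. It was lost without TR replicate 2 (0.25, adjusted p = 0.150), TR replicate 3 (0.34, adjusted p = 0.0519), TR replicate 4 (0.30, adjusted p = 0.0811), NR replicate 2 (0.27, adjusted p = 0.162) or NR replicate 3 (0.20, adjusted p = 0.286). For the omissions of TR replicates 3 and 4 the estimate stayed near 0.31, and the standard error rose from 0.116 to 0.129 and 0.128. Without TR replicate 1 the estimate was 0.36 (adjusted p = 0.0244), and without NR replicate 1 it rose to 0.47 (adjusted p = 0.00211). With all samples drawn down to 1914497 counts it was 0.27 (adjusted p = 0.106), and with an offset for GC content, which is 46.5% in the longest Ttr transcript, it was 0.17 (adjusted p = 0.247). With genes detected as a covariate the sign turned (-0.14, adjusted p = 0.750).

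**Figure D2:**
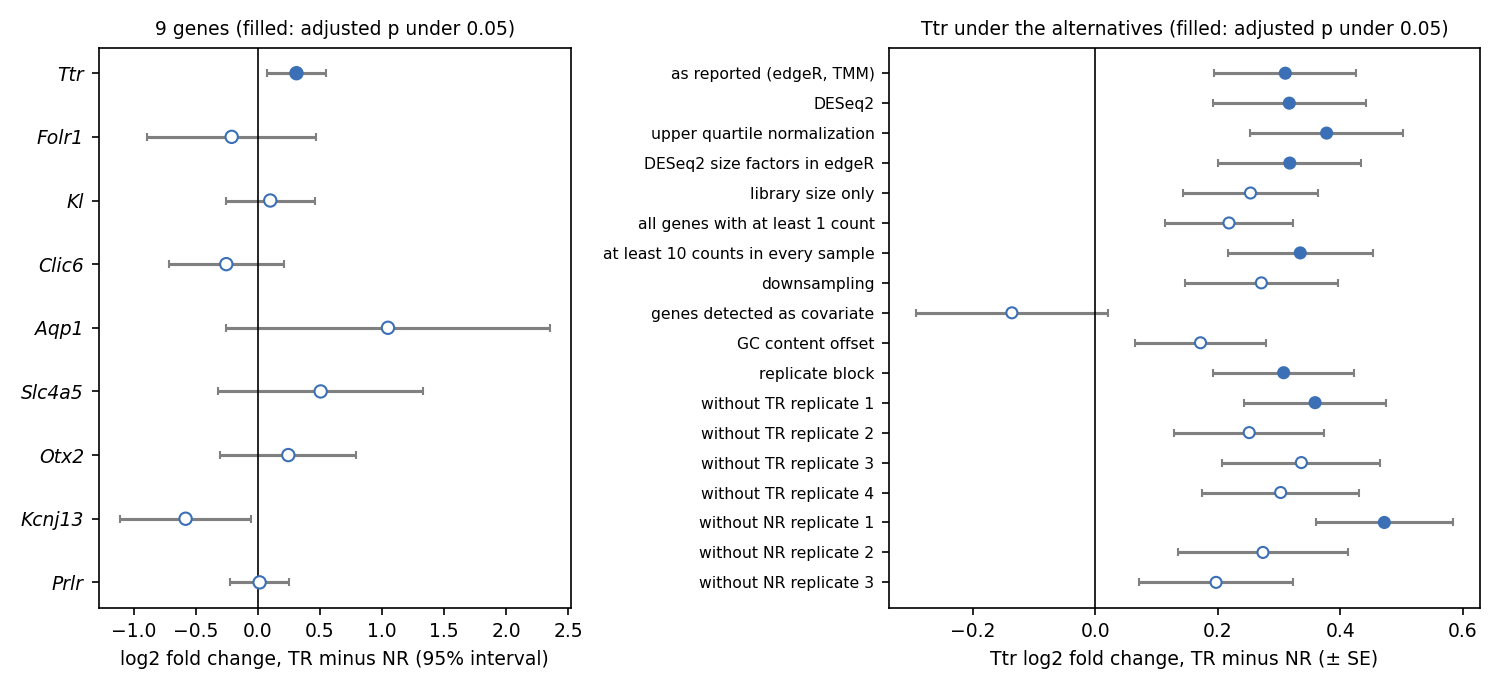
Log2 fold changes of TR minus NR samples. The left panel gives the 9 genes with 95% intervals, of which Ttr is filled (adjusted p under 0.05), and the right panel gives Ttr with its standard error under each alternative, filled at 7 of 17 alternatives and below 0 only with the genes detected as a covariate.

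Ttr moved with the number of genes detected. TR replicate 2 had the highest Ttr (319.8 CPM) and the most genes detected (21177), followed by TR replicate 4 in both. NR replicate 3 had the lowest of both (191 CPM and 17818 genes) and NR replicate 2 the next lowest. NR replicate 1, the NR sample with the most genes detected (19820), was also the one with the highest Ttr (277 CPM), and it was the exception to the order, above TR replicates 1 and 3, which had more genes detected. The summed CPM of the other 8 genes did not follow this order, with 195 CPM in NR replicate 2 and 146 CPM, the lowest value, in TR replicate 1. Because genes detected and library totals separate the groups, their part and that of the temperature response cannot be told apart.

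**Figure D3:**
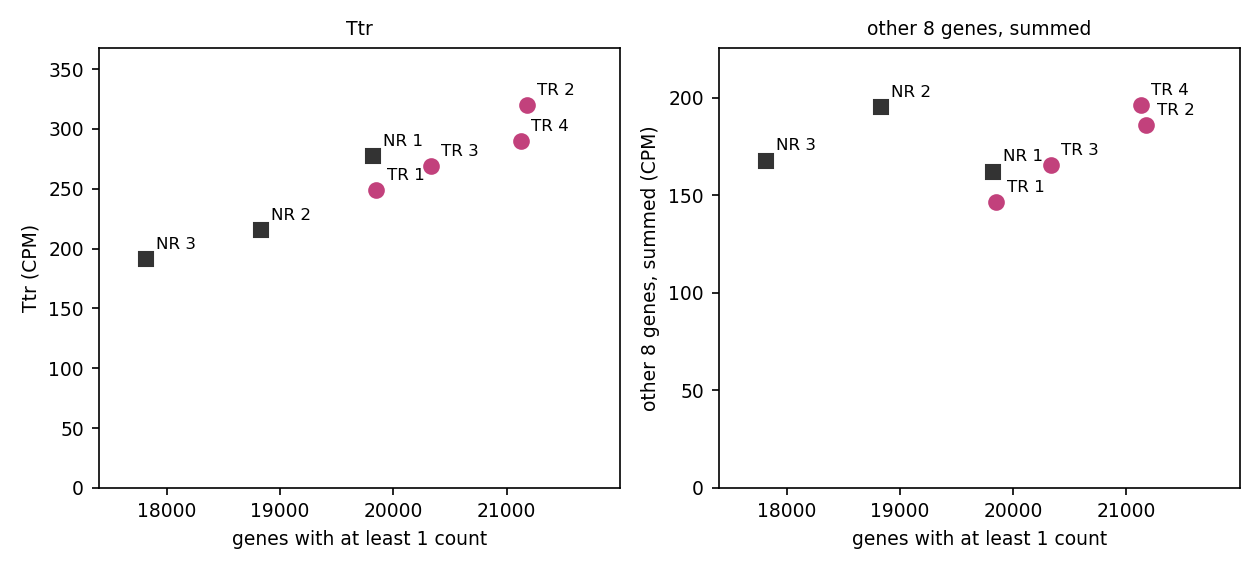
Ttr (left) and the summed other 8 genes (right) in CPM against genes detected, with 1 labelled point per sample. Ttr runs from 191 CPM at 17818 genes to 320 CPM at 21177 genes, and the other 8 genes lie between 146 and 196 CPM without that order.

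The share of Ttr among the counts of the 9 genes was lowest in NR replicates 2 and 3. It was 63.0% in TR replicate 1 (95% Clopper-Pearson interval 59.6 to 66.2), 63.3% in TR replicate 2 (60.1 to 66.3), 61.9% in TR replicate 3 (59.1 to 64.7) and 59.6% in TR replicate 4 (57.0 to 62.2). The share was 63.1% in NR replicate 1 (60.6 to 65.6), 52.5% in NR replicate 2 (50.4 to 54.6) and 53.2% in NR replicate 3 (50.9 to 55.6). The intervals of NR replicates 2 and 3 lay below those of the other 5 samples. NR replicates 2 and 3 also had the largest library totals (5125280 and 4865437 counts). Duplicates were removed before counting, which can lower abundant genes such as Ttr, and the part of this step in the shares was not tested. These intervals cover counting error only, since the reads carried no molecular identifiers, and samples of 1 group differed by more than counting error over all genes. Per kilobase of exon, which makes genes of different length comparable, Ttr held 80.8% to 89.3%.

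**Figure D4:**
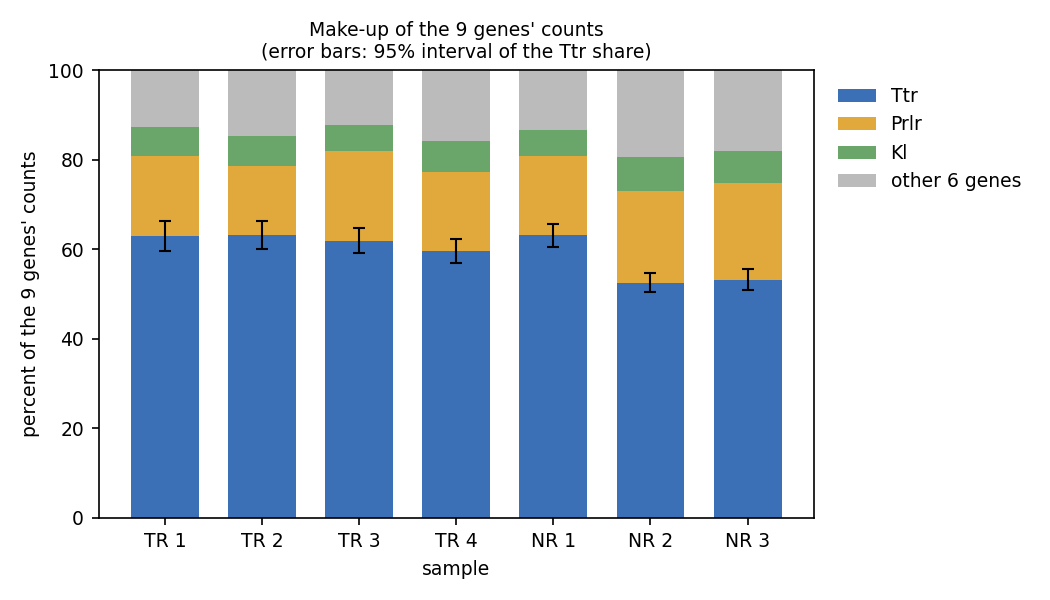
Share of the 9 genes' counts, in percent, held by Ttr, Prlr, Kl and the other 6 genes in each sample, with the 95% counting interval of the Ttr share. NR replicates 2 and 3 have the smallest Ttr shares, at 52.5% and 53.2%.

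On the scale of CPM per kilobase of exon, Ttr averaged 218 over the 7 samples, far above the next gene, Kcnj13 (11.1). The value and rank of Kcnj13 are uncertain, since 49.1% of its exonic bases also lie in exons of Gigyf2. Clic6 followed with 5.87, Prlr with 5.22, Kl with 3.07, Folr1 with 2.84, Otx2 with 2.81, Slc4a5 with 1.21 and Aqp1 with 1.05. Ranges over samples overlapped between Kcnj13 and Clic6, between Clic6 and Prlr, among Kl, Folr1 and Otx2, between Otx2 and Slc4a5, and between Slc4a5 and Aqp1. They did not overlap between Ttr (161 to 270) and Kcnj13 (7.15 to 19.0) or between Prlr (4.6 to 5.66) and Kl (2.72 to 3.64).

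As a measure of reads on genes used mainly in the nose, 1092 olfactory receptor genes were set beside the 9 on the same scale. Ttr was at least 1180 times their pooled level in each sample. Ttr, Folr1, Kl, Clic6, Otx2, Kcnj13 and Prlr exceeded the 95th percentile of the receptor genes in all 7 samples, Slc4a5 in 6 and Aqp1 in 5. The highest single receptor gene reached 2.15 to 7.35 CPM per kilobase, and between 3 and 7 of the 9 genes lay above it in a sample. The pooled receptor level was itself higher in TR samples (0.0968 to 0.229 CPM per kilobase) than in NR samples (0.0126 to 0.0703), and its part in the differences between groups was not tested.

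Folr1, the folate receptor that passes folate into the cerebrospinal fluid, was low in all samples. It had 5.57, 6.46, 5.81 and 6.68 CPM in TR replicates 1 to 4 and 6.29, 7.90 and 7.01 CPM in NR replicates 1 to 3. The groups overlapped, and the log2 fold change was -0.21 (95% interval -0.89 to 0.47, adjusted p = 0.662).

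The estimates of the 4 genes of ion and water transport had both signs, but their 95% intervals overlapped, so a difference among them is not shown. Kcnj13 encodes the inward rectifier potassium channel Kir7.1 of the epithelium's surface and lies on chromosome 1 from 87386363 to 87394729. Its level was 11.6, 11.8, 9.07 and 14.4 CPM in TR replicates 1 to 4, and 11.98, 24.1 and 16.01 CPM in NR replicates 1 to 3. NR replicate 2 was highest, and NR replicate 1 lay within the TR range. The log2 fold change was -0.58 (standard error 0.256, 95% interval -1.11 to -0.055), short of the threshold (adjusted p = 0.0866). It passed with all genes of at least 1 count in the fit (-0.68, adjusted p = 0.0317), with the GC content offset (-0.71, adjusted p = 0.0377) and without NR replicate 1 (-0.77, adjusted p = 0.0243), and the estimate was -0.26 without NR replicate 2 (adjusted p = 0.532). Of the exonic bases of Kcnj13, 49.1% lie in exons of Gigyf2 on the other strand. The strand setting of the counting was not given in the sources used here, so reads there may belong to Gigyf2, whose own estimate was -0.27 (adjusted p = 0.113).

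Clic6, an intracellular chloride channel protein, had 11.1, 24.8, 19.6 and 29.2 CPM in TR replicates 1 to 4 and 24.3, 27.3 and 24.6 CPM in NR replicates 1 to 3. TR replicate 1 was lowest at 24 counts and TR replicate 4 highest, so that the TR range enclosed the NR range. The log2 fold change was -0.25 (95% interval -0.72 to 0.21, adjusted p = 0.411). Slc4a5 encodes a sodium bicarbonate cotransporter of the surface that faces the fluid. It had 2.79, 12.4, 7.26 and 9.49 CPM in TR replicates 1 to 4 and 7.79, 5.08 and 4.203 CPM in NR replicates 1 to 3, from 6 to 27 counts. TR replicate 1 was again the lowest sample. Its log2 fold change of 0.51 had a 95% interval from -0.32 to 1.33 (adjusted p = 0.358). Aqp1, the water channel of the same surface, rested on 2 to 17 counts. In TR replicates 1 to 4 it had 2.32, 5.38, 0.726 and 5.97 CPM, and in NR replicates 1 to 3 it had 0.599, 2.07 and 2.20 CPM. TR replicate 3 and NR replicate 1, at 2 counts each, lay under the floor of 3 counts. The log2 fold change was 1.05, the largest estimate of the 9, with a 95% interval from -0.26 to 2.35 (adjusted p = 0.216), and a difference was not detectable at this depth.

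Otx2 encodes the homeodomain factor required for the choroid plexus to form. It had 16.3, 12.9, 10.5 and 11.6 CPM in TR replicates 1 to 4 and 7.79, 13.5 and 10.4 CPM in NR replicates 1 to 3. TR replicate 1 was highest, although it was lowest for Folr1, Clic6, Slc4a5 and Prlr. The log2 fold change was 0.24 (95% interval -0.30 to 0.79, adjusted p = 0.516).

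The hormone-related genes Prlr and Kl differed little between the groups, although Prlr moved with the GC content offset. Prlr, the prolactin receptor, lies on chromosome 15 from 10177238 to 10349180 and had 70.6, 78.1, 86.8 and 85.7 CPM in TR replicates 1 to 4. In NR replicates 1 to 3 it had 77.9, 84.3 and 77.1 CPM. The NR values lay inside the TR range, and with 145 to 448 counts the log2 fold change of 0.014 was the most closely bounded of the 9 (95% interval -0.22 to 0.25, adjusted p = 0.943). This interval does not cover the choice of scaling. With the GC content offset the Prlr estimate was -0.30 (adjusted p = 0.0671), outside it. Kl encodes klotho, the co-receptor of the hormone FGF23. It had 26.0, 33.9, 25.4 and 33.0 CPM in TR replicates 1 to 4 and 25.5, 30.7 and 26.2 CPM in NR replicates 1 to 3. The log2 fold change was 0.099 (95% interval -0.26 to 0.46, adjusted p = 0.698).

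A wider list of 33 genes linked to the choroid plexus gave more calls of higher than of lower genes. Of these, 28 were tested, and 7 passed as higher and 1 as lower in TR samples, beside 15.1% higher and 14.9% lower over all genes tested, and the median log2 fold change was 0.033. The list summed to 1650 to 2010 CPM in TR and 1490 to 1520 CPM in NR samples, without overlap. This sum rested mainly on Enpp2, Slc4a10, Slc12a2 and Htr2c. They averaged 480, 364, 308 and 303 CPM in TR and 397, 261, 242 and 204 CPM in NR samples. No other gene of the list averaged more than 81.6 CPM in either group, so the separation is not one of the list as a whole. The genes that rose were Htr2c (0.57, adjusted p = 0.000288), Slc4a10 (0.48, adjusted p = 0.00210), F5 (1.08, adjusted p = 0.00981), Cldn1 (1.32, adjusted p = 0.0388), Abca4 (1.28, adjusted p = 0.0437), Enpp2 (0.27, adjusted p = 0.0437) and Slc12a2 (0.34, adjusted p = 0.0463). Neurons also use Htr2c, a serotonin receptor, Slc4a10, a bicarbonate transporter, and Slc12a2, a chloride importer, and Enpp2, the enzyme autotaxin, is also made by oligodendrocytes. Spint2, a protease inhibitor of epithelia, fell by 0.56 on the log2 scale (adjusted p = 0.00551). Which cells gave the reads of F5, Cldn1 and Abca4, or of the other genes that rose, was not tested. Among tested genes of the list that did not pass, estimates ran from -1.17 for Wfdc2 (adjusted p = 0.0923) to 1.08 for Tmem72 (adjusted p = 0.283). Near the middle of this range, Kcne2, a potassium channel subunit, had 6 to 29 counts and a log2 fold change of -0.029 (adjusted p = 0.965). Sostdc1, a secreted inhibitor of BMP and Wnt signals, had 22 to 102 counts and a value of -0.22 (adjusted p = 0.544). Mfrp had 0 counts in all 7 samples, and Cldn2, Cldn3, Msx1 and Krt8 had too few to be tested.

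Markers of other cells were counted in the same way, beside 15.1% higher and 14.9% lower over all genes tested. The list of 10 ependymal genes, which mark the ciliated lining of the ventricles, summed to 74.8 to 123 CPM in TR and 105 to 130 CPM in NR samples, with 0 genes higher and 1 lower, Rsph1 (log2 fold change -0.81, adjusted p = 0.0265). Foxj1, the ciliogenesis factor that defines this lining, had 1.86 to 6.32 CPM in TR and 6.81 to 7.52 CPM in NR samples (log2 fold change -0.70, adjusted p = 0.189), while the estimates of Mia (0.50, adjusted p = 0.264), Meig1 (0.24, adjusted p = 0.539), Rarres2 (0.15, adjusted p = 0.756) and 1110017D15Rik (0.035, adjusted p = 0.920) were above 0. The 9 meningeal and stromal genes summed to 117 to 175 CPM in TR and 69.1 to 98.2 CPM in NR samples, without overlap, and 4 of 9 passed as higher, led by Lum (log2 fold change 1.71, adjusted p = 0.00616), a proteoglycan of fibroblasts. The 5 endothelial genes summed to 93.5 to 315 CPM in TR and 17.8 to 64.4 CPM in NR samples, again without overlap, and 2 of 5 passed as higher. The 5 astrocyte genes summed to 1080 to 1260 CPM in TR and 876 to 1070 CPM in NR samples, also without overlap, with 2 genes higher and 1, Gfap, lower. The oligodendrocyte list ranged from 2290 to 3760 CPM and the microglia list from 271 to 324 CPM over the 7 samples. None of the ependymal, meningeal, endothelial or astrocyte markers was at 0 in any sample. Their part in the Ttr difference was not tested.

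**Figure D5:**
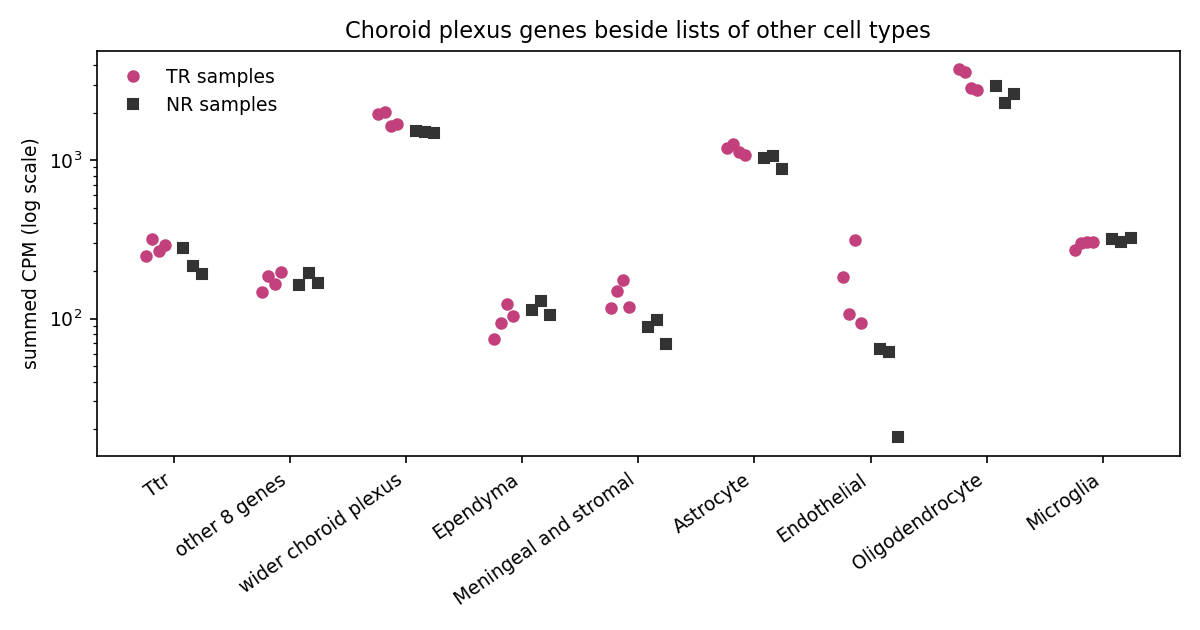
Summed CPM, on a log axis, of Ttr, the other 8 genes, the wider choroid plexus list and 6 lists of other cell types, with 1 point per sample (TR circles, NR squares). The endothelial, meningeal, astrocyte and wider choroid plexus sums are higher in all TR samples than in all NR samples, whereas Ttr and the other 8 genes overlap between the groups. The wider choroid plexus sum rests mainly on Enpp2, Slc4a10, Slc12a2 and Htr2c.

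The genes whose log2 CPM was most like that of Ttr over the 7 samples were Col7a1 (Pearson's r = 0.995), Samsn1 (0.990), Gpx5 (0.987), Trcg1 (0.986) and Ankra2 (0.986), given as a description. These samples share the difference in depth and genes detected, and 338 genes had r above 0.9. None of the 5 belongs to the lists above, and Gpx5 and Trcg1 had 0 counts in at least 1 sample.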

How the data were processed

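RNA from pooled pairs of patched neurons was amplified with SMART-seq V4 and made into libraries with Nextera XT. The authors aligned reads to mm10 with STAR 2.6.0, removed duplicates with RmDup and deposited raw counts per gene symbol from HTSeq 0.9.1. Removing duplicates without molecular identifiers can lower abundant genes such as Ttr. The annotation and strand setting are not given in the sources used here. Groups and replicate numbers were taken from the sample titles.

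Genes were kept if 3 or more samples had 10 or more counts, which left 14407 for edgeR 4.0.16 (R 4.3.3; TMM, robust quasi-likelihood, two-sided, Benjamini-Hochberg). Standard errors came from the fold change and its F statistic. The fit was tested on simulated data. GENCODE M21 (mm10) gave positions, exon lengths and the GC content of the longest transcript; 98.4% of symbols and all 9 genes were found in it. The 9 genes, the lists and the tests were chosen with earlier results of these data known. Named genes were the 9, all genes of the wider list past the threshold, defining markers, neuron checks and the 5 genes most like Ttr; others were chosen after their values were seen. Of the genes most like the sum of the other 8, 1 is not reported here. Same-group samples differed by more than counting noise alone would give (chi-square over its degrees of freedom 2.00 to 5.06, 14854 genes). Alternatives were DESeq2 1.42.0, other scalings and filters, downsampling, a covariate, a GC content offset (mgcv 1.9.3), a replicate block and omission of each sample.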

Additional observations from a re-analysis of the deposited data

How the results depend on the processing

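Of 17 alternatives, 7 kept Ttr past the threshold. Omissions of samples gave 0.20 to 0.47, and among them Ttr kept the threshold only without TR replicate 1 or without NR replicate 1. Apart from the omissions, it lost the threshold with library size only (0.25), all genes with at least 1 count (0.22), downsampling (0.27) and the GC content offset (0.17). It reversed with the genes detected as a covariate (-0.14). Adjusted p over all alternatives ranged from 0.00211 to 0.750, and the cause was not tested. The number of the 9 genes past the threshold was 0 with library size only (2 at an unadjusted p under 0.05), downsampling (1) and the covariate (0), all in edgeR, and 1 with DESeq2. It ranged from 0 to 2 when samples were left out. With all genes of at least 1 count and with the GC content offset the 1 gene was Kcnj13, not Ttr. The median of all genes was 0.17 under the first of these, which adds low genes.

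Over all genes, 1 passed with the covariate and 2620 (without NR replicate 3) to 4583 (without NR replicate 1) passed when samples were left out, in place of 4327. With the GC content offset 32.7% of calls were higher, in place of 50.3%.

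Signs turned for Folr1 with downsampling (0.13), for Slc4a5 with the covariate (-0.77), for Kl with the covariate (-0.094) and the GC content offset (-0.0065), and for Prlr with library size only (-0.044), all genes with at least 1 count (-0.079), the covariate (-0.065), the GC content offset (-0.30) and the replicate block (-0.020). Prlr ranged from -0.022 to 0.064 when samples were left out. Clic6, Aqp1, Otx2 and Kcnj13 kept their signs under all alternatives that tested them. With the replicate block Ttr was 0.31 (adjusted p = 0.0482, edgeR). Same-numbered samples share only a number, and their deviations from the group means correlated from -0.128 to 0.0316 in 3 pairs. Group means of the sums moved by less than 1 SD with downsampling and with library size only, as did those of the Ttr shares with downsampling. Leaving out 1 sample cannot move a group mean by 1 SD, so the omissions are no check of this. Without NR replicate 1 the mean Ttr share of NR samples was 52.9%, in place of 56.3%. Aqp1 could not be tested with 10 counts required in every sample or after downsampling, nor Slc4a5 with the former. Depth limits Aqp1, Slc4a5 and Folr1 most, with as few as 2, 6 and 12 counts.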

Other observations

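For the summed CPM of the 8 genes other than Ttr, the highest correlations were picked from 14407 genes tested, as a description. They included Zfp608 (Pearson's r = 0.983), Gapdhs (0.964), A2m (0.938) and Nme5 (0.936) over the 7 samples. How many such values so few samples would give without any link was not tested. For this sum, 21 genes had r above 0.9. For Ttr, 338 genes had.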
